A study of Mus musculus with 6 samples.

Results

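The TRIM family was followed in RAW 264.7, an established mouse macrophage cell line, after 48 h with lipopolysaccharide (LPS, 100 ng/ml) and LPS-binding protein (LBP, 100 pM) against cells left untreated for 48 h. Members were all probes whose platform gene symbol is Trim followed by a number. This gave 25 probes for 24 genes among 16281 probes on the array, and a further probe assigned to several genes was left out. Total RNA of both cultures was hybridised together on 6 two-colour arrays, 3 with the treated RNA in Cy5 and 3 with it in Cy3, and each orientation had a set 1, a set 2 and a set 3. The series title and part of the sample descriptions write the line as RAW 264.4, while the sample titles and sources write RAW 264.7. Each value below is a log2 ratio of treated over untreated cells, with the sign turned on the arrays that had the treated RNA in Cy3.

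TRIM proteins share a RING finger, B-box zinc fingers and a coiled coil, and the RING finger makes most of them E3 ubiquitin ligases. The domain that follows this tripartite motif sets the subgroup: a PRY-SPRY domain binds ligands such as viral capsids, antibody or RNA sensors, and a PHD finger with a bromodomain reads chromatin. In macrophages, interferon released after LPS sensing induces a number of PRY-SPRY members, some of which drive antiviral signalling and others of which restrain NF-kB. Trim16, Trim29 and Trim44 lack the RING finger, so the set is described as the TRIM family rather than as ligases.

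Exact zeros, which made up 7.97% to 17.8% of an array's values, were treated as missing. The arrays hold ratios without levels, so the labelled cell type could not be checked against the abundance of its markers. Deposited ratios correlated at 0.672 to 0.773 between arrays of the same orientation and at -0.66 to -0.414 between opposite orientations, and this follows the dyes named in the labels. With this sign, the probes of Nos2, Tnf, Il6 and Il1b, genes known to be induced by LPS, averaged 0.88 to 3.81. The base of the logarithm is not given in the sources used here and was taken as 2, and with a natural logarithm every fold change would be larger. The 2 orientations of a set were averaged, and limma tested the mean of the 3 resulting values against 0 over 12724 probes that had a ratio on all 6 arrays (Benjamini-Hochberg adjusted p under 0.05). Each error is an SD over these set values (n = 3). The labels do not tie the sets to separate cultures, and p-values rest only on spread between sets, which may be technical. In limma, a probe's own spread is drawn towards a value pooled over all probes tested (6.33 prior degrees of freedom). A p-value therefore does not follow the SD printed beside it alone. In RNA from a whole culture, a change in the share of cells that express a gene and a change in RNA per cell cannot be told apart.

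A ratio on all 6 arrays was available for 19 of the 25 TRIM probes, which stand for 18 genes. Trim30a, Trim34a, Trim25, Trim21 and Trim44 rose and Trim28, Trim27 and Trim16 fell, while the other 11 probes did not pass. The increases reached 9.64-fold, whereas the largest decrease was 1.29-fold. The 5 probes that rose were 26.3% of the TRIM probes tested, beside 14.8% of all probes, and the 3 that fell were 15.8%, beside 12.2%. The share that fell was close to that of all probes. The median ratio over the 19 probes was -0.06, beside -0.01 over all probes tested. Of the TRIM probes, 5 were above 0 on all 6 arrays (16.1% of all probes were) and 3 were below 0 on all 6 arrays (14.1% of all probes were). With zeros kept as ratios of 0, limma called 2 TRIM probes higher and 1 lower of 25, beside 5.55% and 3.1% of all probes. Those called there were Trim30a, Trim25 and Trim27.

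**Figure D1:**
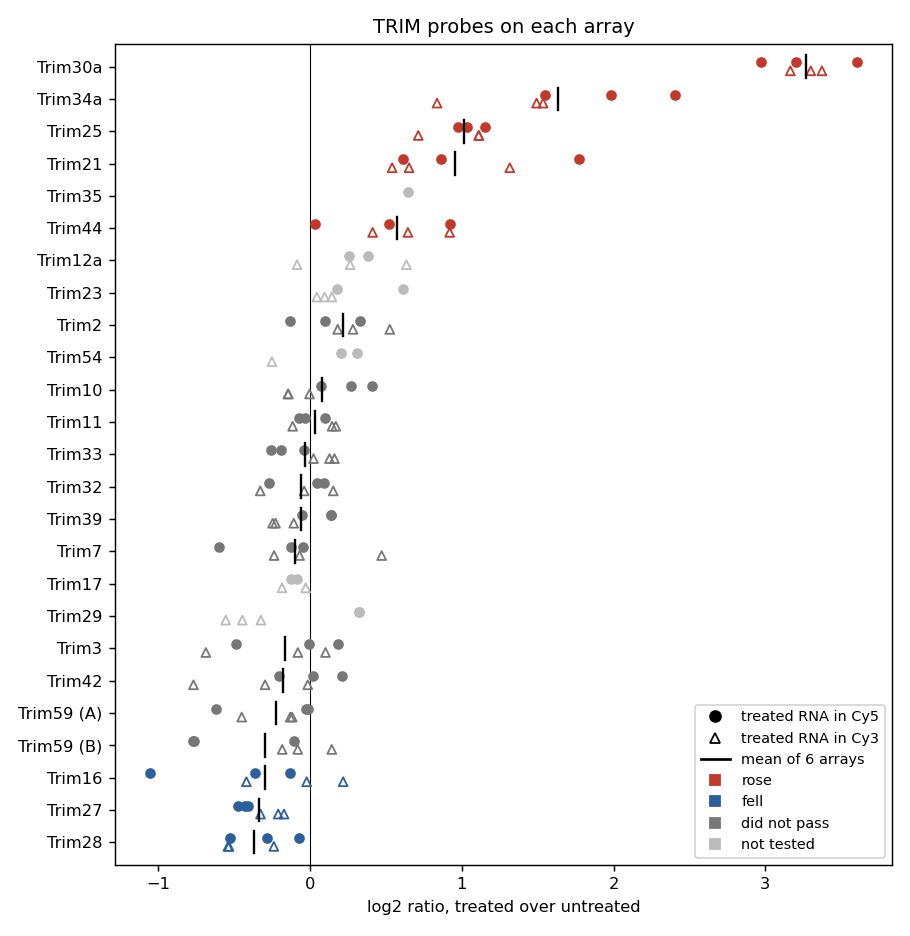
Log2 ratio of treated over untreated cells (x axis) for each of the 25 TRIM probes (y axis), with filled circles for arrays with treated RNA in Cy5, open triangles for arrays with it in Cy3 and a vertical bar for the mean where all 6 arrays gave a ratio. Trim30a stands apart on every array, at 2.97 to 3.60, and most other members lie around 0.

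Among TRIM genes, the largest change belonged to Trim30a, a mouse PRY-SPRY protein known to restrain NF-kB signalling downstream of Toll-like receptors. Its ratios were 3.20, 2.97 and 3.60 with treated RNA in Cy5 (sets 1 to 3) and 3.30, 3.16 and 3.37 in Cy3. All 6 arrays lay within less than 1 log2 unit of each other and far above 0. The mean was 3.27 ± 0.21, a 9.64-fold increase (limma, adjusted p = 3.01e-07), which ranked 32 from the top among the 12724 probes. Trim34a, a PRY-SPRY relative of the retroviral restriction factor Trim5, read 1.55, 1.98 and 2.40 in Cy5 and 0.84, 1.54 and 1.49 in Cy3. Every array was above 0, and the arrays with treated RNA in Cy5 averaged 1.98 beside 1.29 in the opposite orientation. Trim34a rose by 1.63 ± 0.39, or 3.10-fold (limma, adjusted p = 7.58e-05). With zeros kept its adjusted p was 0.052, against 1.77e-08 to 0.052 over 12 alternatives. Trim12a, a PRY-SPRY member of the same gene cluster, was listed at 0 on 1 array and was therefore not tested. Its other ratios were 0.26 and 0.38 in Cy5 and 0.26, -0.09 and 0.63 in Cy3, all below the lowest array of Trim34a.

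In the RefSeq gene table (GRCm38.p6), Trim30a, Trim34a and Trim12a lie in a run of 10 neighbouring Trim genes on chromosome 7 with 1 other gene among them, and only these 3 of the 10 were on the array. The run also holds Trim34b, Trim12c, Trim30b, Trim30c and Trim30d, which are close relatives of the genes measured. Probe sequences were not used here, so a signal of Trim30a, Trim34a or Trim12a that comes partly from such a relative cannot be told apart. Trim21 lies on the same chromosome, with 98 protein-coding genes between it and the run. Of the 6 member genes on chromosome 7, Trim30a, Trim34a and Trim21 rose, Trim28 fell, Trim3 did not pass and Trim12a was not tested.

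Promoter sequence from RefSeq (GRCm38.p6, 250 bases before to 50 after the start) was matched for 17 of the 24 genes, in 25 promoters. The windows below are those on chromosome 7 with a match near the start to the interferon-stimulated response element. This element was searched on both strands as GAAA, any 2 bases and GAAA. A match near 1 start of Trim2, on chromosome 3, is not shown. The windows run 50 bases to either side of the start, 5′ to 3′ along the gene, and capitals mark the match. Trim21 was added to the set after its values were seen. Trim30a has 2 annotated starts, on the minus strand at chr7:104446076-104446175 and chr7:104465144-104465243 (100 bases each). Trim34a is on the plus strand at chr7:104244407-104244506, Trim12a on the minus strand at chr7:104315446-104315545, and Trim21 on the minus strand at chr7:102565433-102565532.
Trim30a, inner start: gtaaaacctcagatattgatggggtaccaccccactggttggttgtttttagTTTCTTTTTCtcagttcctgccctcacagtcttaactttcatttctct
Trim30a, outer start: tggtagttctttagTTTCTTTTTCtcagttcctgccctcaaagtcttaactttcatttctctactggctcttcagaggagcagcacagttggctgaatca
Trim34a: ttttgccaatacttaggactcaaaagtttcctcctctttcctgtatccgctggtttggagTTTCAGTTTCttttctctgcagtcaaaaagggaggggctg
Trim12a: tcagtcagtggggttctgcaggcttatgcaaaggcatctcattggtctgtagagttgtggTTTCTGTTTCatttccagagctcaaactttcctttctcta
Trim21: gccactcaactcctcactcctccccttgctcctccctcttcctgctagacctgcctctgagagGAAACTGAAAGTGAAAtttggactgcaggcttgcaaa

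In Trim21 the capitals are 2 overlapping matches, which begin 14 and 20 bases into the transcript counted from 1 at the start. The match began 11 bases into the transcript in Trim34a and Trim12a, 3 bases in at the inner start of Trim30a and 36 bases before its outer start. Except in Trim21, the motif lay on the strand opposite to the gene. Over the 300-base promoters, those of the 2 Trim30a starts were 70% identical in a global alignment, and each of the other pairs among these 5 promoters was 48.8% to 56% identical. A match was present in 6 of 25 TRIM promoters (24%), and in 3.44% of 32851 RefSeq promoters of that length. The sixth was at 1 of 5 starts of Trim2, a gene that did not pass. Trim30a gave 2 of the 6. Counted by gene, a match was present in 5 of 17 TRIM genes (29.4%) and in 3.99% of 27025 genes. Trim25 and Trim44, which rose, had no match in this window. A kappa B-like motif, GGGA, any 2 bases and TTCC, was found in 1 TRIM promoter, that of Trim28 at 176 bases before the start (1.47% of all promoters), and a STAT motif, TTC, any 3 bases and GAA, in 0 of 25 (8.3% of all promoters). These matches describe letters in the promoters, and binding of a factor was not measured.

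**Figure D2:**
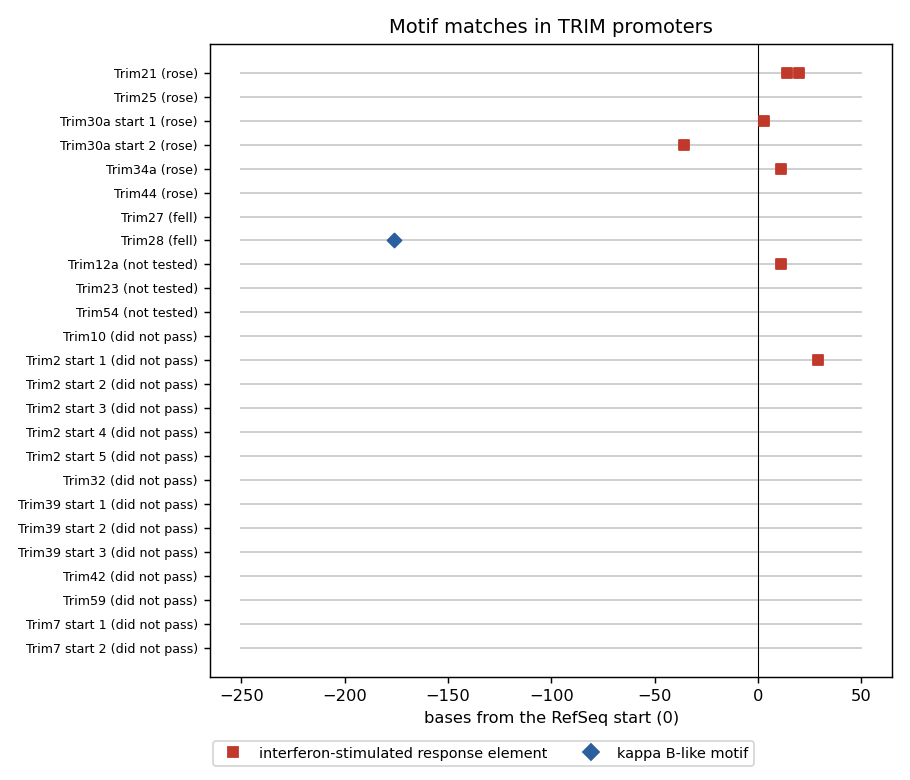
Position in bases from the RefSeq start (x axis) of the first base of each motif match in the 25 TRIM promoters (y axis, with the call of the gene's probe), with squares for the interferon-stimulated response element and a diamond for the kappa B-like motif. The response element matches lie within 50 bases of the start, in Trim21, Trim30a, Trim34a, Trim12a and 1 start of Trim2.

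Trim25 and Trim21, PRY-SPRY ligases of antiviral defence outside the chromosome 7 run, rose by about the same amount. Trim25, which ubiquitinates the RNA sensor RIG-I, read 1.03, 1.15 and 0.97 in Cy5 and 1.11, 1.11 and 0.71 in Cy3. The 6 values lay close together. It rose by 1.02 ± 0.15, or 2.02-fold (limma, adjusted p = 0.000125). Trim21, a cytosolic receptor for antibody bound to virus, read 0.86, 0.61 and 1.77 in Cy5 and 0.65, 0.54 and 1.32 in Cy3, with both arrays of set 3 above all others. It rose by 0.96 ± 0.51, or 1.94-fold (limma, adjusted p = 0.00384), and by 0.67 without set 3 (adjusted p 0.000357 to 0.0129 without 1 of the sets). With zeros kept Trim21 did not pass (adjusted p = 0.138, the highest of its 12 alternatives).

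Trim44, which carries a ubiquitin-hydrolase type zinc finger in place of the RING finger, rose less. Its ratios were 0.52, 0.03 and 0.92 in Cy5 and 0.92, 0.64 and 0.41 in Cy3. All were above 0, but the array of set 2 with treated RNA in Cy5 was almost at 0. The mean was 0.57 ± 0.21, or 1.49-fold (limma, adjusted p = 0.00403). It did not pass with zeros kept (adjusted p = 0.0807) or from the arrays with treated RNA in Cy5 alone (0.0949), against 0.00209 to 0.0949 over its alternatives. Of the 19 TRIM probes tested, 3 (Trim30a, Trim34a and Trim25) rose at least 2-fold, beside 3.08% of all probes tested.

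Trim28, the corepressor that KRAB zinc finger proteins use to silence retroelements, was the lowest member. Its ratios were -0.53, -0.29 and -0.08 in Cy5 and -0.53, -0.54 and -0.24 in Cy3, and set 3 was nearest to 0 in both orientations. Trim28 fell by 0.37 ± 0.19 on the log2 scale, 1.29-fold (limma, adjusted p = 0.0265). The call was lost without set 1 (adjusted p = 0.132), without set 2 (0.119), with zeros kept (0.134) and from the arrays with treated RNA in Cy5 alone (0.15), over a range of 0.00838 to 0.15. Its PHD-bromodomain relative Trim33, a ligase of the TGF-beta mediator Smad4, read -0.19, -0.26 and -0.04 in Cy5 and 0.13, 0.02 and 0.16 in Cy3. Its sign followed the dye, and its mean of -0.03 ± 0.09 did not pass.

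Trim27, a PRY-SPRY ligase first described as the RET finger protein, read -0.41, -0.43 and -0.47 in Cy5 and -0.17, -0.33 and -0.21 in Cy3. All 6 values were below 0, and the 3 nearest to 0 were those in Cy3. It fell by 0.34 ± 0.05, or 1.26-fold (limma, adjusted p = 0.0192), and also with zeros kept (adjusted p = 0.035). Without set 2 or set 3 it did not pass (0.0855 and 0.0621), nor from the arrays with treated RNA in Cy3 alone (0.141), over a range of 0.00333 to 0.141. Trim16, a RING-less PRY-SPRY protein linked to autophagy of damaged lysosomes, had the highest adjusted p of the 8 probes called. It read -0.13, -1.06 and -0.36 in Cy5 and -0.42, 0.22 and -0.02 in Cy3. The arrays of set 2 pointed in opposite directions and partly cancel, so the SD of its mean, -0.30 ± 0.11 (limma, adjusted p = 0.0406), does not show the array range of -1.06 to 0.22. Trim16 did not pass without set 1, set 2 or set 3 (adjusted p = 0.0537 to 0.171), with zeros kept (0.0917), or within either orientation, where it averaged -0.52 in Cy5 and -0.08 in Cy3 (0.0354 to 0.721 over 12 alternatives).

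The other PRY-SPRY members with a full set of ratios stayed near 0. Of 10 PRY-SPRY probes tested, 4 rose and 2 fell, with a median of 0.05. Of all probes tested, 14.8% rose and 12.2% fell, with a median of -0.01. Trim7, which binds the glycogen primer glycogenin, read -0.60, -0.05 and -0.12 in Cy5 and -0.24, 0.47 and -0.07 in Cy3, and averaged -0.10 ± 0.31. Trim10, a gene of red cell differentiation, read 0.27, 0.07 and 0.41 in Cy5 and -0.15, -0.14 and -0.004 in Cy3. Its sign followed the dye on every array, and its mean was 0.08 ± 0.12. Trim11 read -0.03, 0.09 and -0.07 in Cy5 and -0.12, 0.17 and 0.14 in Cy3, with a mean of 0.03 ± 0.10. Trim39 read 0.14, -0.05 and 0.14 in Cy5 and -0.11, -0.23 and -0.25 in Cy3, with a mean of -0.06 ± 0.08. None of these 4 passed (limma, adjusted p = 0.585 to 0.832).

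Outside the PRY-SPRY and PHD-bromodomain groups, Trim44 was the only probe called. The NHL-repeat members Trim2, Trim3 and Trim32 averaged 0.21 ± 0.12, -0.16 ± 0.38 and -0.06 ± 0.21, and set 3 of Trim3 stood at -0.49 and -0.69 while its other arrays lay between -0.08 and 0.18. Trim2 was the highest of the probes that did not pass (limma, adjusted p = 0.119). Trim42, of the COS-domain group, averaged -0.18 ± 0.09 (0.177). The transmembrane member Trim59 had 2 probes. The first averaged -0.23 ± 0.27 with all 6 arrays below 0, and the second -0.29 ± 0.27 with 5 of 6 below 0. Their arrays overlapped, and neither passed (limma, adjusted p = 0.179 and 0.0913), although the second averaged -0.45 and passed without set 1 (adjusted p = 0.0159).

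The remaining 6 members were listed at 0 on 1 or more arrays and had no test. Trim23, which carries an ARF GTPase domain, was above 0 on each of its 5 arrays, at 0.04 to 0.61. Trim29 read 0.32 on both of its arrays in Cy5 and -0.56 to -0.32 in Cy3, so its sign followed the dye. Trim17 lay at -0.19 to -0.03 on 4 arrays. The muscle gene Trim54 had 3 ratios, at -0.25, 0.21 and 0.31, and Trim35 had a single ratio, at 0.64. With Trim12a this accounts for all 25 probes. When probes with both orientations in at least 2 sets were tested as well, 23 TRIM probes entered, and the same 5 rose and the same 3 fell.

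**Figure D3:**
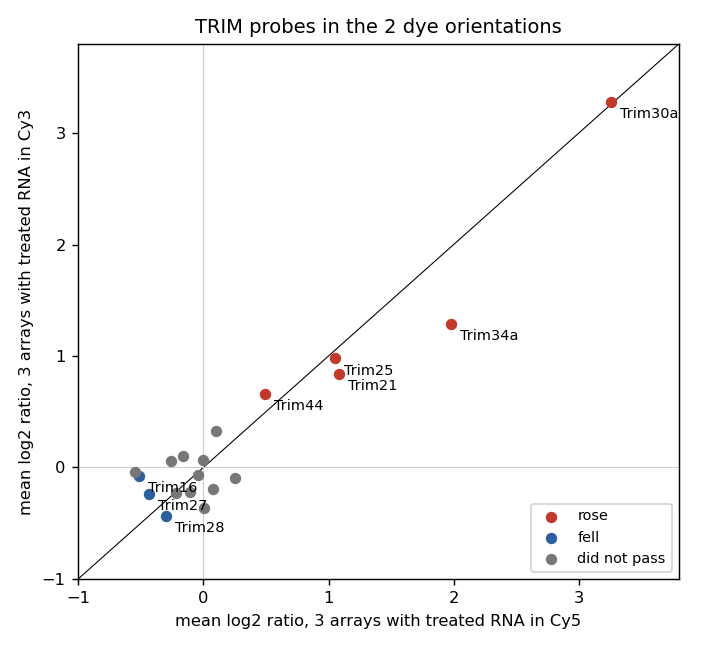
Mean log2 ratio over the 3 arrays with treated RNA in Cy5 (x axis) and over the 3 with it in Cy3 (y axis) for the 19 TRIM probes tested, with the line of equal values. Trim30a lies on the line (3.26 and 3.28), Trim34a below it (1.98 and 1.29), and Trim16 is near 0 in Cy3 only (-0.52 and -0.08).

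A dye effect, the mean of the ratios before their sign was turned, ran from -0.25 (second probe of Trim59) to 0.34 (Trim34a) over the 19 probes. It passed in 0 of them (limma, adjusted p under 0.05), beside 0.181% of all probes. An unadjusted p under 0.05 was found for 5 TRIM probes, namely Trim34a, Trim59 (second probe), Trim10, Trim33 and Trim39. Such values were common on the array, where an unadjusted p of 0.0507 (Mid1) had an adjusted p of 0.191 (limma). The 5 are therefore not read as particular to TRIM probes. For Trim34a the adjusted p was 0.0977. The dye effect cancels in the set means given above. The 5 genes that rose averaged above 0 in each orientation, and their lowest orientation mean was the 0.49 of Trim44 in Cy5.

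**Figure D4:**
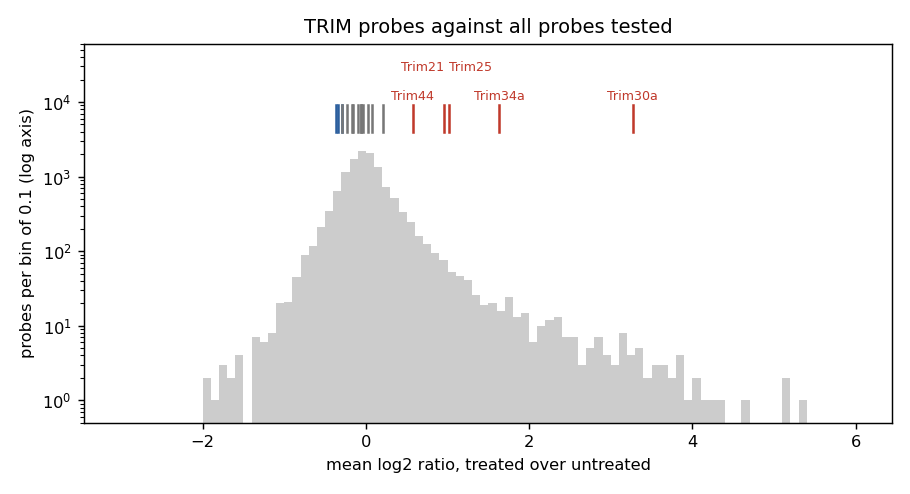
Histogram of the mean log2 ratio (x axis) of the 12724 probes tested, in bins of 0.1 on a log count axis, with the 19 TRIM probes as vertical ticks (red for higher, blue for lower, grey for not passed). Trim30a at 3.27 lies in the upper tail, and 14 of the 19 ticks fall between -0.37 and 0.21.

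Other genes of the routes in which TRIM proteins act were taken from lists made from general knowledge, and counts are read against the 14.8% of all probes that rose and the 12.2% that fell. TRIM proteins with other symbols had 5 probes, with a median of -0.04. Pml, the nuclear body organiser also known as a TRIM, rose by 0.96 ± 0.31 with all 6 arrays above 0, at 0.52 to 1.55 (limma, adjusted p = 0.000647, and 0.0691 with zeros kept). Mid2 (0.05 ± 0.08), Cmya5 (-0.04 ± 0.07), the pyrin gene Mefv (-0.20 ± 0.21) and Mid1 (-0.27 ± 0.26) did not pass.

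Genes of RNA and DNA sensing, where Trim25 acts, rose in 8 of 11 probes and fell in 0, with a median of 0.82. These probes stand for 8 genes, and RIG-I itself was not among them. The transcription factor Irf7 (2.83 ± 0.18) and the RNA sensor Ifih1 (2.42 ± 0.15) were highest. The lowest were Irf3 (-0.11 ± 0.17) and a probe of the kinase Ikbke (-0.11 ± 0.07), which did not pass, although another probe of Ikbke rose by 1.49 ± 0.17. Rnf135, a RING and PRY-SPRY ligase that also ubiquitinates RIG-I, rose by 0.83 ± 0.25 on 1 probe and stood at -0.003 ± 0.31 on the other.

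Of 16 probes for ubiquitin, E1 and E2 enzymes, 4 rose and 1 fell, with a median of 0.08. The highest were Ube2l6 (1.67 ± 0.15) and Uba7 (1.37 ± 0.08), the E2 and E1 of the ubiquitin-like modifier ISG15, and the broadly used E2 gene Ube2d3 rose by 0.39 ± 0.08. The lowest were Ube2d2a (-0.18 ± 0.27), which did not pass, and a probe of Ube2v2 that fell by 0.36 ± 0.17, while the other Ube2v2 probe stood at 0.44 ± 0.85. Ube2n, which builds the chains made on RIG-I, stood at -0.11 ± 0.11 without passing. Its sign followed the dye, at 0.09 to 0.43 in Cy5 and -0.55 to -0.39 in Cy3, which this SD does not show. Other ubiquitin ligases of inflammatory and antiviral signalling rose in 12 of 23 probes and fell in 0, with a median of 0.34. The interferon-induced HECT ligase Herc6 (2.27 ± 0.20) and Rnf114 (1.11 ± 0.24, and 1.00 ± 0.13 on a second probe) were highest, and Rbck1 (-0.15 ± 0.08) and a probe of Traf2 (-0.27 ± 0.13) were lowest and did not pass.

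Among the chromatin partners of Trim28 and Trim33, 3 of 10 probes fell and 1 rose, with a median of -0.11. The heterochromatin protein genes Cbx5 and Cbx3, which encode binding partners of Trim28, fell by 0.82 ± 0.14 and 0.55 ± 0.11. Cbx1, also a heterochromatin protein gene of this list, stood at -0.04 ± 0.03 and did not pass (limma, adjusted p = 0.744). Smad3 fell by 0.65 ± 0.16. Setdb1, the histone methyltransferase that Trim28 recruits, rose by 0.68 ± 0.10, whereas Smad2 was near 0 on both probes (0.00 ± 0.05 and -0.06 ± 0.11). Components of PML bodies rose in 2 of 9 probes and fell in 0, with a median of -0.05. They were Sp100 (1.84 ± 0.21) and Daxx (1.31 ± 0.08), and the lowest, Rnf4 (-0.11 ± 0.06) and a probe of Hipk2 (-0.13 ± 0.22), did not pass.

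**Figure D5:**
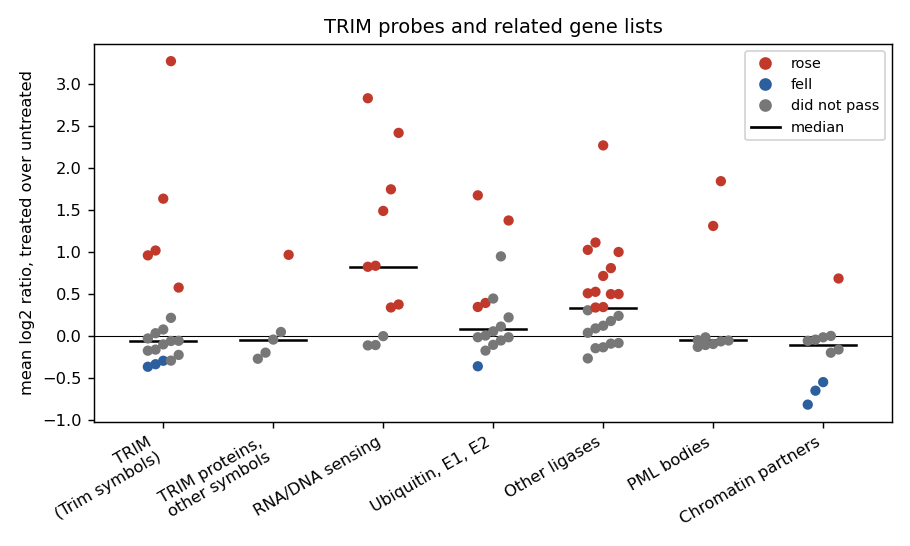
Mean log2 ratio of treated over untreated cells (y axis) of each probe tested in the TRIM family and in 6 related lists (x axis), coloured by call, with a bar at the median. Trim30a at 3.27 is above every probe of the related lists, whose highest is Irf7 at 2.83, and the TRIM median of -0.06 is near 0.

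Among macrophage markers, 3 of 9 probes rose and 1 fell, beside 14.8% and 12.2% of all probes. Those that rose were Fcgr1 (1.96 ± 0.15), Adgre1 (0.94 ± 0.09) and 1 of 3 probes of Ptprc (0.40 ± 0.01), and the growth factor receptor Csf1r fell by 0.53 ± 0.22. Of 14 probes tested for markers of B cells, T cells, fibroblasts, epithelium and endothelium, the B cell gene Cd79a (0.63 ± 0.11) and the fibroblast gene Dcn (2.68 ± 0.95) rose. The part of these changes in the TRIM ratios was not tested.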

How the data were processed

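The deposited table holds 1 log2 ratio of Cy5 over Cy3 per probe and array, with a median of 0 on each array. Per the labels, each array set treated against untreated cells. No source used here gives the scanner, the background correction, the dye normalization or the spot filters. Exact zeros were set to missing. Each of the 6 columns belonged to a known sample. Probes were named through the platform annotation, and all 25 members matched the RefSeq table by gene ID. Set means (both orientations averaged) were tested with limma 3.58.1 in R 4.3.3 (lmFit with an intercept, eBayes, two-sided), and p-values were adjusted over all probes tested. The fit was tested on simulated data drawn with each probe's own noise over 12724 probes, where noise was independent between arrays. Of 100 probes changed by 1 log2 unit 92% were called, and of 100 changed by 2 units 100%, with 0% false calls. In the data, residuals of arrays of a set correlated at 0.349 (limma consensus), and the simulation did not cover such shared noise. It also did not cover changes below 1 unit, where Trim21, Trim44, Trim28, Trim27 and Trim16 lie. Members, lists, domain groups and motifs were chosen with earlier results of these data known. Values on all 6 arrays are given for TRIM probes called with 1 direction on all 6 arrays and for their tested relatives of the same domain group, and for Trim16 in addition. Of each list the 2 highest and 2 lowest probes are named, and others named there were chosen after their values were seen.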

Additional observations from a re-analysis of the deposited data

Results flagged for a closer look

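Trim10 and Trim33 drew attention because every array of one dye orientation lay on one side of 0 and every array of the other on the opposite side. The mean of their unturned ratios was 0.17 for Trim10 and -0.13 for Trim33. The test of this difference did not pass for either (limma, adjusted p = 0.131 and 0.165), and neither gene was called for treatment. Among the 19 TRIM probes with 6 ratios, none had a single array far enough from the other 5 to be singled out by Dixon's criterion.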

How the results depend on the processing

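With zeros kept as ratios of 0, the TRIM probes called went from 5 higher and 3 lower to 2 and 1. The probes called in the related lists went from 28 higher and 4 lower of 74 to 21 and 2 of 82. All probes called went from 1887 higher and 1556 lower to 903 and 504. From the arrays with treated RNA in Cy5 alone, 4 TRIM probes were higher and 1 lower, beside 9.67% and 8.65% of all probes. From those in Cy3 alone 5 were higher and 2 lower, beside 15.7% and 10.9% of all probes. Of the 2 TRIM probes lower in Cy3 alone, only Trim28 was among the 3 called lower in the main fit. The other was Trim29, which was not tested there and whose sign followed the dye (mean -0.44 in Cy3). Without 1 set, 5 TRIM probes were higher in each case and 0 to 2 lower. Of all probes, 10.7% to 12% were then higher and 6.59% to 8.95% lower, beside 14.8% and 12.2% in the main fit. The 2 lower without set 1 were Trim27 and the second probe of Trim59, a probe not called in the main fit. Fitting genes, centring on nonzero ratios, scaling the arrays or testing incomplete probes left 5 and 3. Of all probes or genes in these fits, 13.5% to 15.2% were higher and 11% to 12.8% lower. Fitting the 6 arrays with a dye term gave 5 and 2 both without a replicate block and with the set number as a block, and Trim16 was the call lost (adjusted p = 0.111 and 0.266). Of all probes, 17.6% were higher and 16.1% lower without the block, and 14.8% and 11.9% with it. Deviations of same-numbered arrays correlated at 0.528, 0.0773 and 0.167, and set 2 correlated better with another set (0.133). The values given in the text nevertheless average same-numbered arrays, so their SD, n = 3 and p-values rest on the set numbers; the fit of 6 arrays without a block does not. Trim30a and Trim25 passed in all 12 alternatives, Trim34a and Trim21 in 11, Trim44 in 10, Trim27 in 9, Trim28 in 8 and Trim16 in 4, and no called probe changed direction. With zeros kept, no called probe changed its ratio, since each had a ratio on all 6 arrays. The prior degrees of freedom went from 6.33 to 0.76, and the probes tested from 12724 to 16281. The cause of the losses was not tested. The number of sets limits precision.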
